A study of Mus musculus with 6 samples.

Results

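The comparison described here is between regenerating and uninjured muscle of hypothyroid mice. Single cells of the tibialis anterior (TA), the shin muscle, taken 5 days after cardiotoxin were set against single cells of TA that had not been injured, all from mice on the hypothyroid diet. The table of each library holds several alphabetical runs of barcodes, and only the first run was used here. Which run belongs to the label was not given in the sources used here, and the cell numbers the study states lie nearer to all columns of each table (1056 and 4309) than to the first runs. The 528 later columns of day 0 were identical to cells in the table of the control diet at day 5, and 0 of the 2154 later columns of day 5 were identical to cells of another table. This gave 2683 cells, 528 from day 0 and 2155 from day 5, of 11207 first-run cells in the 6 libraries of the series. The 2 libraries shared 0 barcodes. Within each library 2 groups of cells were picked by transcript: 177 and 619 cells with at least 1 UMI (a counted transcript molecule) of Pdgfra, the PDGF receptor that marks fibro-adipogenic progenitors, and 24 and 64 cells with a UMI of Cdh5, the cadherin of endothelial junctions.

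The study followed TA regeneration after cardiotoxin in hypothyroid mice and in mice on a control diet, at days 0, 5 and 14. All mice were males of 3 to 5 months that carried the Fucci2aR cell cycle reporter in the Rosa26 locus, without a Cre driver in the animals used for sequencing. The hypothyroid groups ate low iodine chow with 0.15% propylthiouracil, a blocker of thyroid hormone synthesis, before and throughout the experiment, and the day 5 muscles received cardiotoxin at 50 µg/ml. Each library pooled the muscles of 3 mice, went through red blood cell lysis and dead cell removal, and has no replicate, so no test between conditions was possible and differences between mice cannot be told apart from the effect of injury.

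Cardiotoxin, a snake venom peptide, kills muscle fibres and spares many of the other cells of the tissue. Leukocytes then enter, macrophages clear the debris and fibro-adipogenic progenitors, the main fibroblast-like cells of muscle, multiply and lay down a provisional matrix while new fibres form inside capillary-rich tissue. Thyroid hormone acts through the nuclear receptors encoded by Thra and Thrb, and is known to influence both myogenesis and fibre type.

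Levels are UMIs of a gene per 1000000 UMIs summed over a group of cells (CPM), and a ratio is the day 5 level over the day 0 level. All intervals are exact 95% intervals that cover counting error only. A gene was called higher at a ratio of at least 2 and lower at a ratio of 0.5 or under, if the mean of its 2 levels reached 20 CPM. A gene at 0 in one library was given the level of 3 UMIs there, so its fold is a bound against that level and not the end of an interval. A share of 0 is given with the limit of 3 counts of the total, which holds for the stated depth. Day 5 cells were deeper, with a median of 8055 UMIs against 3634, and the 2 libraries held 23496509 and 2283740 UMIs. At day 0 muscle fibre RNA was found in 528 of 528 cells and made up 2.90% of UMIs, against 0.0388% at day 5, and its part in other ratios was not tested.

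In all cells 771 of 5883 genes were higher at day 5 (13.1%) and 1123 were lower (19.1%). With all columns of both tables the calls were 130 higher and 172 lower, so every count and ratio here holds for the first runs. Macrophage, matrix and interferon-stimulated genes stood among the higher ones, and genes of muscle fibres, red blood cells, Schwann cells and the vessel wall among the lower ones. The median log2 ratio was -0.25 in all cells, -0.27 in Pdgfra-positive cells and -0.44 in Cdh5-positive cells, so the typical gene was slightly lower at day 5. With the median ratio set to 1, 1039 genes were higher and 735 lower in all cells, which turns the higher share of the calls from 40.7% to 58.6%. Changes in these pooled cells mix the number of cells of each type with the RNA each one held, and these cannot be told apart.

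**Figure D1:**
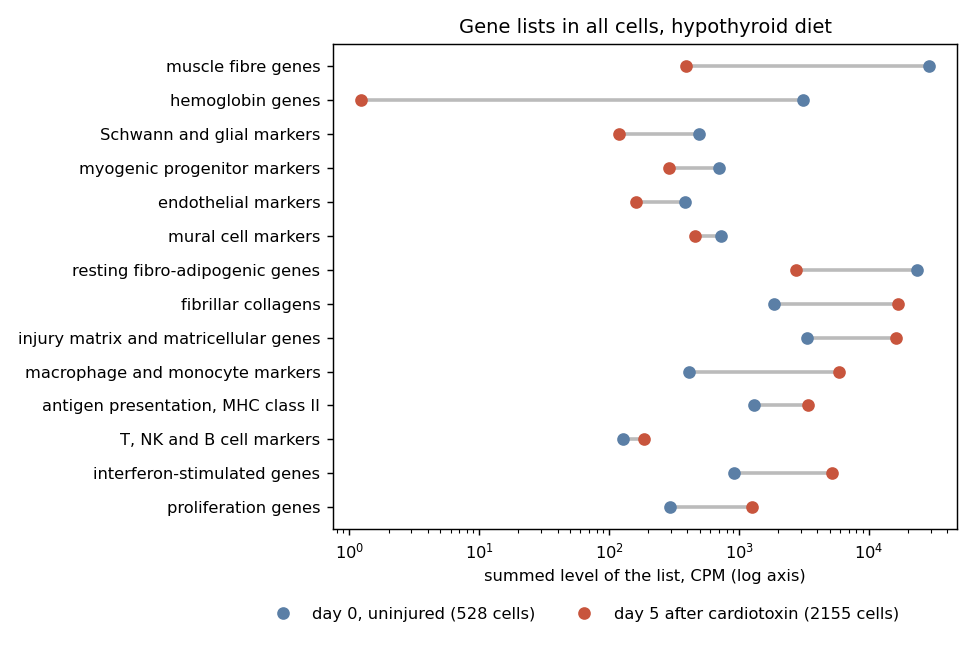
Summed level of 14 gene lists in all cells of the hypothyroid mice, in CPM on a log axis, at day 0 (blue) and day 5 (red). Muscle fibre genes went from 28994 to 388 CPM and hemoglobin genes from 3116 to 1.23 CPM, while macrophage and monocyte markers went from 410 to 5847 CPM.

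Of the 11 macrophage and monocyte markers at or above 20 CPM, 10 were higher and 0 lower, with a median log2 ratio of 3.96. Of the 14 markers in the list 5 had 0 UMIs at day 0, and such members could pass the minimum level only through day 5. C1qa, C1qb and C1qc, which encode the chains of complement C1q made by tissue macrophages, had 0 UMIs at day 0 and 621, 837 and 412 CPM at day 5, at least 473-fold, 637-fold and 314-fold higher. Ms4a7 (276 CPM at day 5) and the platelet factor 4 gene Pf4 (380 CPM) were also at 0 UMIs at day 0. Lyz2, the lysozyme gene of myeloid cells, was 8.71 times as high (8.02 to 9.47), and Trem2, a lipid-sensing receptor of macrophages, rested on 5 UMIs at day 0 with a ratio of 143 (61.4 to 442) and is named after its values were seen. Ly6c2, a marker of freshly recruited monocytes, had 25.8 CPM at day 0 and 18.1 CPM at day 5, a ratio of 0.70 (0.532 to 0.936). The chemokine gene Ccl4 went from 1 UMI to 1629 CPM.

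In cells thinned to 1000 UMIs each, Ptprc, the pan-leukocyte antigen CD45, was found in 2.65% of 490 cells at day 0 (1.42 to 4.49%) and in 18.6% of 2024 cells at day 5 (16.9 to 20.3%). Lyz2 went from 1.22% of cells to 29.4%. C1qb was found in 0 of 490 cells, which allows a share of up to 0.612%, and in 24.7% at day 5.

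The gain was uneven across leukocyte genes. All 5 measured genes of MHC class II antigen presentation were higher, among them H2-Aa (3.05, 2.80 to 3.32) and Cd74 (2.07, 1.97 to 2.18). Gzma, the granzyme of cytotoxic lymphocytes, was 4.37 times as high. Cd79a, part of the B cell receptor, was lower, from 46.9 to 6.21 CPM, with a ratio of 0.133 (0.103 to 0.172). Its share of thinned cells was 3.27% at day 0 (1.88 to 5.25%) and 1.78% at day 5 (1.25 to 2.45%). These intervals overlapped. The share with Cd3d, from the same marker list, was 0.612% (0.126 to 1.78%) and 2.62% (1.97 to 3.41%). Of 11 measured T, NK and B cell markers only 2 reached the minimum level, 1 higher and 1 lower. All 4 granulocyte genes in the tables were under the minimum level, and S100a8 had 6.13 CPM at day 0 and 5.36 CPM at day 5.

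All 14 muscle fibre genes that reached the minimum level were lower, with a median log2 ratio of -6.26. Acta1, skeletal muscle actin, had 8817 CPM at day 0 and 84.8 CPM at day 5, and Ckm, muscle creatine kinase, had 2999 and 16.5 CPM. Pvalb, the calcium buffer of fast fibres, was 246-fold lower. The 4 kept hemoglobin genes were lower too, with Hbb-bs at 2120 CPM at day 0 and 0.894 CPM at day 5. At day 0 a hemoglobin UMI was found in 154 of 528 cells, and these genes made up over 20% of UMIs in 3 cells. The list summed to 3116 CPM in all cells of day 0 and to 54.2 CPM in the Pdgfra-positive ones. Of 4 kept Schwann and glial markers 3 were lower. Of 6 kept mural cell markers 3 were lower, among them Myh11, the smooth muscle myosin, 69.3-fold, and of 6 kept endothelial markers 4 were lower and 1 higher. Over all genes of all cells 19.1% were called lower and 13.1% higher.

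Myogenic genes were few and did not move as one. Myod1, the factor of committed myoblasts, was lower, from 111 to 13.2 CPM (ratio 0.119, 0.101 to 0.142), and its share of cells at 1000 UMIs was 2.24% at day 0 and 0.543% at day 5. Chrna1, an acetylcholine receptor subunit of young fibres, was 10.5 times as high (5.86 to 21.1). Myog, the factor of differentiating myocytes, had 1 UMI at day 0 and 265 UMIs at day 5, or 11.3 CPM, and Cdh15, the cadherin of muscle precursors, had 3 and 403 UMIs, both under the minimum level. Pax7, the satellite cell factor, had 3.94 and 4.77 CPM with a ratio of 1.21 (0.615 to 2.71).

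All 13 interferon-stimulated genes were higher in all cells, where 13.1% of all genes were called higher. Their median log2 ratio was 3.32 against -0.25 for all genes. These genes are switched on downstream of interferon receptors and encode antiviral proteins. Rsad2 (viperin) had 5.69 CPM at day 0 and 651 CPM at day 5, a ratio of 114 (66.9 to 215). Rsad2 passed the minimum level only through day 5, so its higher call was fixed by that filter. The count of higher members and the median thus follow in part from that filter. Ifit1, which binds foreign RNA, had a ratio of 58.6 (38.0 to 96.0), and Isg15, a ubiquitin-like modifier, one of 12.5 (10.4 to 15.1). Their transcripts were found in leukocytes and in other cells. At 1000 UMIs per cell, Ifit1 was found in 42.1% of Ptprc-positive cells at day 5 (cells with a UMI of Ptprc and none of Pdgfra or Cdh5) and in 17.3% of Pdgfra-positive cells. C1qb, a gene of macrophages, was found in 44.4% of the former and 3.46% of the latter. Spp1 was found in 40.5% and 17.3%, and Apoe in 55.3% and 14.5%. The part of leukocyte RNA in these shares was not tested. In Pdgfra-positive cells all 10 measured members were higher, and in Cdh5-positive cells 9 of 13. Over all genes 14.5% and 15.9% were called higher in these groups. Ifit1 and Rsad2 had few UMIs at day 0 in Pdgfra-positive cells and passed the minimum level only through day 5.

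The promoters of these genes are known for the interferon-stimulated response element, in which a GAAA repeat is spaced by 2 bases. The letters GAAANNGAAA were searched on both strands, overlaps allowed, from 250 bases before to 50 bases after the transcription start of each gene in RefSeq. Windows were found for 9 of the 13 genes, and 6 of these 9 held the letters, against 3.99% of 27025 genes. Those with a match were Isg15, Ifit1, Ifit3, Rsad2, Bst2 and Ifitm3, and those without one were Ifit2, Irf7 and Oasl2. A match describes the sequence and no binding was measured here. Stretches of the 3 promoters with the genes named above are shown on the strand of the gene, with every match in capitals. On GRCm39 they lie at chr19:34618145-34618253 (plus strand), chr12:26506522-26506611 (minus strand) and chr4:156285292-156285393 (minus strand), and the first match begins 104, 120 and 78 bases before the start.
Ifit1: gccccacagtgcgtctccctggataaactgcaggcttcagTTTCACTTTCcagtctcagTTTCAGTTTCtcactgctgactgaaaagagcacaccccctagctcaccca
Rsad2: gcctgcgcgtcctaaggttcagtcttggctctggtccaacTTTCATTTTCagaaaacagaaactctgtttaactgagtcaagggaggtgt
Isg15: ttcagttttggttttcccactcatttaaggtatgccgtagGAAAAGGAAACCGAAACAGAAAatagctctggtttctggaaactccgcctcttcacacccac

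Pdgfra-positive cells were then compared on their own. Pdgfra itself was lower in all cells, at 194 CPM on day 0 and 81.7 CPM on day 5, and was found in 14.1% of cells at 1000 UMIs on day 0 (11.1 to 17.5%) and in 6.18% on day 5 (5.17 to 7.31%). The picked cells carried fibroblast transcripts at both times. Decorin (Dcn) was found in 177 of 177 and 608 of 619 cells, and Col1a1 in 133 and 603 of them. Of the day 5 cells 157 also held a UMI of Lyz2, 125 one of C1qa, C1qb or C1qc, 54 one of Ptprc and 13 one of Cdh5, against 0, 0, 1 and 0 at day 0. The 14 macrophage and monocyte markers summed to 11.5 CPM at day 0 and 620 CPM at day 5 in Pdgfra-positive cells. The 6 that reached the minimum level did so only through day 5, so their higher calls were fixed by that filter. The counts were therefore repeated on the 176 and 328 cells without a UMI of Lyz2, C1qa, C1qb, C1qc, Cd74, Ptprc or Cdh5, a narrower selection chosen after seeing the data.

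In Pdgfra-positive cells 811 of 5591 genes were higher at day 5 (14.5%) and 1247 were lower (22.3%). In the narrower selection 750 genes were higher and 1186 lower. With the median ratio set to 1 the counts were 1119 higher and 808 lower.

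**Figure D2:**
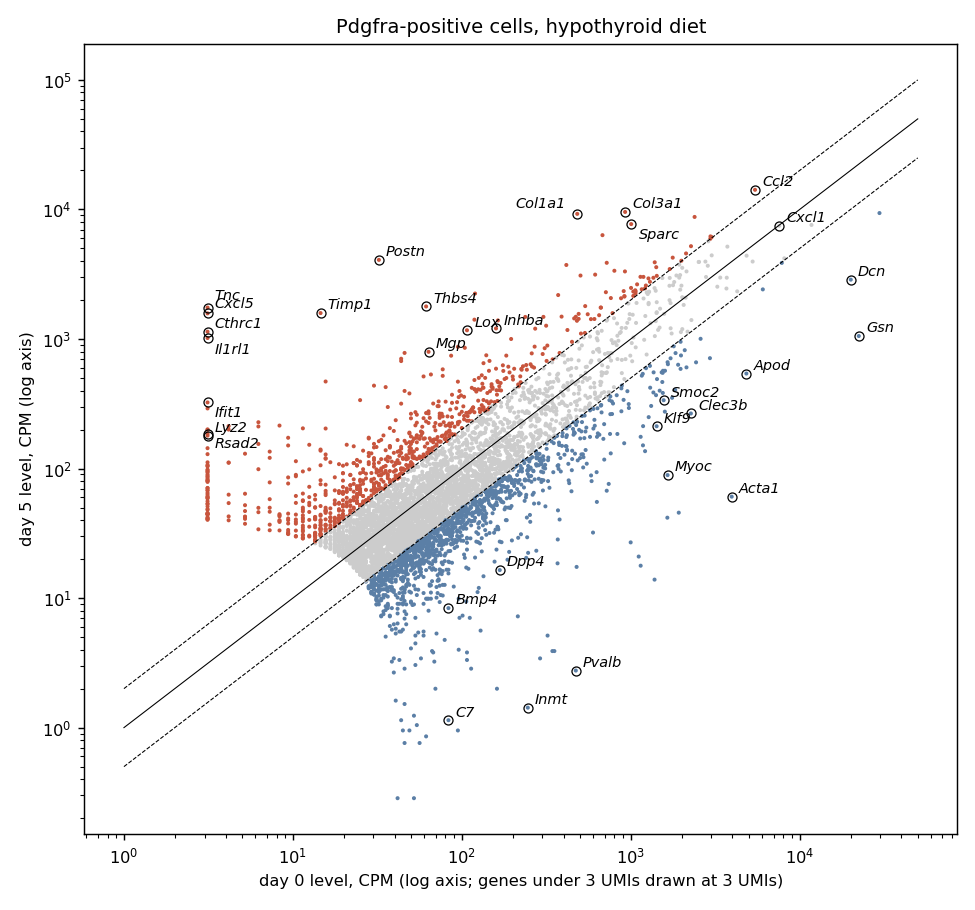
Level of each of 5591 genes in Pdgfra-positive cells at day 0 (horizontal) and day 5 (vertical), in CPM on log axes, with genes called higher in red, lower in blue and the rest in grey. The solid line marks equal levels and the dashed lines a ratio of 2 and 0.5, and Postn, Tnc and Cxcl5 lie far above them while Gsn, C7 and Inmt lie far below.

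All 6 fibrillar collagen genes that reached the minimum level were higher, with a median log2 ratio of 3.13. Col1a1 (chr11:94827050-94843868 on GRCm39), which encodes the main chain of type I collagen, had 482 CPM at day 0 and 9243 CPM at day 5, a ratio of 19.2 (17.5 to 21.0). Col3a1, the collagen of loose and healing tissue, went from 926 to 9564 CPM and had a ratio of 10.3. The other 4, Col1a2, Col5a1, Col5a2 and Col5a3, had ratios between 2.74 and 9.31. Sparc, a matricellular protein that binds collagen, had a ratio of 7.66 (7.19 to 8.17). In the narrower selection the ratio of Col1a1 was 20.3.

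The enzymes that finish collagen moved in the same direction. Of 14 genes for collagen processing and crosslinking, 10 were higher and 0 lower. Lox, the lysyl oxidase that crosslinks collagen and elastin, had a ratio of 10.9 (8.97 to 13.3), Loxl3 one of 9.61 (5.71 to 17.6) and Serpinh1, the collagen chaperone HSP47, one of 3.14 (2.86 to 3.45). The 4 that were in neither call were Loxl2, P4ha1, P4ha2 and Bmp1, with ratios between 0.935 and 1.08.

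Of 15 injury matrix and matricellular genes, 12 were higher and 0 lower. Postn (chr3:54268530-54298458), which encodes the matrix protein periostin, had 31 UMIs at day 0 and 42915 at day 5, or 32.3 and 4081 CPM, a ratio of 126 (89.0 to 186). Cthrc1, a secreted protein of activated fibroblasts, went from 3 UMIs to 1138 CPM, a ratio of 364 (125 to 1766). Tnc, the adhesion-modulating glycoprotein tenascin-C, had 1 UMI at day 0 and 1748 CPM at day 5, a ratio of 1678 (301 to 66296). These genes were thus near 0 in the uninjured progenitors and abundant at day 5. Tnc and Cthrc1 passed the minimum level only through day 5, so their higher calls were fixed by that filter. Timp1, an inhibitor of matrix proteases, had a ratio of 109 (64.8 to 199), and Thbs4, a thrombospondin of tendon and muscle, one of 29.0 (22.5 to 38.1), and is named here after its values were seen. Fibronectin (Fn1) had a ratio of 2.02 (1.91 to 2.15), close to the 2-fold limit. The protease genes Mmp2 (0.713) and Mmp14 (1.82) and the hyaluronan synthase Has2 (0.863) were in neither call.

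The share of cells with these transcripts was also larger. At 1000 UMIs per cell, Postn was found in 2.27% of 176 Pdgfra-positive cells at day 0 (0.623 to 5.72%) and in 85.2% of 607 at day 5 (82.1 to 87.9%). Tnc went from 0 of 176 cells, which allows up to 1.70%, to 51.4%, and Cthrc1 from 0 of 176 to 51.7%. Among 748 Ptprc-positive cells of day 5, which should lack these genes, Postn was found in 5.88%, Tnc in 2.81% and Cthrc1 in 2.41%. The median depth before thinning was 15815 UMIs in Pdgfra-positive and 5504 in Ptprc-positive cells. The day 5 shares of Pdgfra-positive cells given here lie above those of the Ptprc-positive cells, with some exceptions. Ifit1, C1qb, Spp1, Apoe, Rsad2 and Lyz2 were more frequent in the Ptprc-positive cells.

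**Figure D3:**
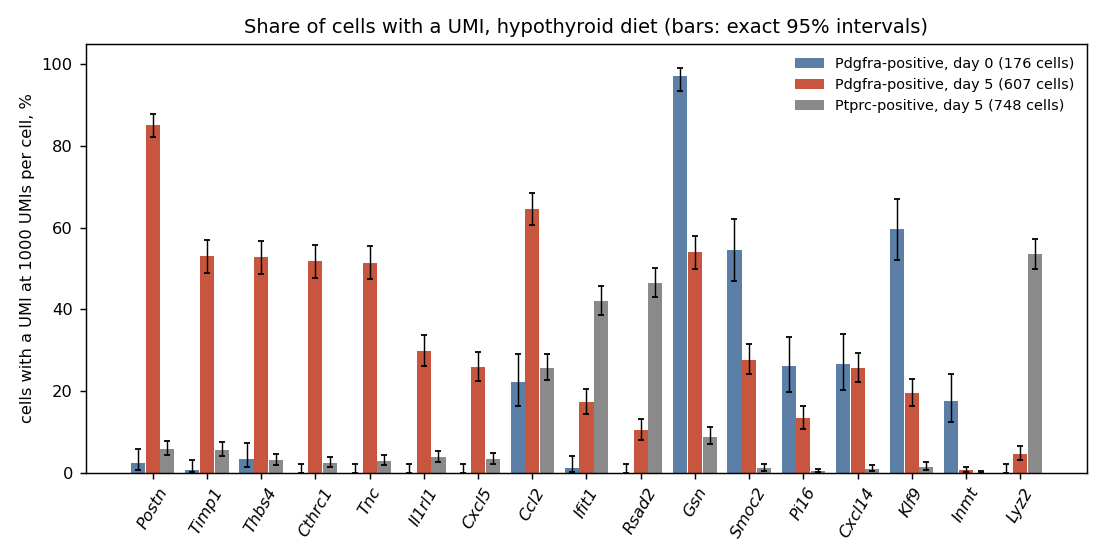
Percent of cells with a UMI of 17 genes after each cell was thinned to 1000 UMIs, in Pdgfra-positive cells of day 0 (blue, 176 cells) and day 5 (red, 607 cells) and in Ptprc-positive cells of day 5 (grey, 748 cells), with exact 95% intervals. Postn was found in 85.2% of Pdgfra-positive cells at day 5 against 2.27% at day 0, and Gsn in 54.0% against 97.2%.

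Of 12 basement membrane genes 0 were higher and 2 lower, where 14.5% and 22.3% of all genes were called. The lower ones were Lama2, the laminin chain of the muscle basement membrane, with a ratio of 0.15 (0.133 to 0.169), and Lamb2 with one of 0.359. Col4a1 had 529 CPM at day 0 and 282 CPM at day 5.

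Of 14 genes of resting progenitors 10 were lower and 2 higher. Gsn, the actin-severing protein gelsolin, had 22381 CPM at day 0 and 1054 CPM at day 5, which is 21.2-fold lower. Dpp4 (10.2-fold lower) and Pi16 (3.59-fold lower), which mark the adventitial stem-like progenitors, and Smoc2 (4.65-fold lower), Apod, Clec3b and Hsd11b1, the enzyme that regenerates active glucocorticoid, stood on the same side. Dcn, a collagen-binding proteoglycan, had 20066 CPM at day 0 and 2871 CPM at day 5. The 2 higher ones were Mgp, an inhibitor of calcification, with a ratio of 12.5 (9.74 to 16.4), and the Wnt antagonist Sfrp1 with one of 2.55. Cxcl14 had 746 and 725 CPM, a ratio of 0.972 (0.901 to 1.05). Gsn was found in 97.2% of Pdgfra-positive cells at day 0 and 54.0% at day 5, and Smoc2 in 54.5% and 27.7%.

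Inmt, a methyltransferase, and C7, the terminal complement component, were close to lost. Inmt went from 246 to 1.43 CPM, 172-fold lower, and 85.8-fold lower in the narrower selection. C7 went from 80 UMIs to 12 UMIs, 73.0-fold lower, and 45.8-fold lower in the narrower selection. Of the 8 complement genes 7 were lower, among them C3 (ratio 0.426), C1s1 (0.34) and the C1 inhibitor gene Serping1 (0.332), while C4b had a ratio of 0.917.

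Of 16 chemokine and cytokine genes 8 were higher and 2 lower, where 14.5% and 22.3% of all genes were called. Ccl2, the chemokine that draws monocytes through CCR2, lies at chr11:81926397-81928279 on GRCm39, had 5441 CPM at day 0 (5294 to 5590) and reached 14176 CPM at day 5, a ratio of 2.61 (2.53 to 2.68). Its share of cells at 1000 UMIs was 22.2% at day 0 and 64.6% at day 5, against 25.7% of Ptprc-positive cells. Its neighbour Ccl7 had a ratio of 1.55 and the neutrophil chemokine Cxcl1 one of 0.989 (0.966 to 1.01). Cxcl5 (chr5:90907219-90909483), which like Cxcl1 signals through CXCR2, had 0 UMIs at day 0 and 1577 CPM at day 5, at least 505-fold higher. Cxcl9 and Cxcl10, the interferon-induced ligands of CXCR3, had ratios of 17.8 (9.94 to 35.8) and 15.4 (11.4 to 21.4). Il1rl1, the receptor for interleukin 33, had 0 UMIs at day 0 and 1018 CPM at day 5, at least 326-fold higher. Its ligand Il33 had a ratio of 1.92 (1.65 to 2.24), and 2.22 in the narrower selection. Cxcl5 and Il1rl1 passed the minimum level only through day 5, so their higher calls were fixed by that filter. The 2 lower ones were the eosinophil chemokine Ccl11 (8.93-fold lower) and the macrophage growth factor Csf1 (2.37-fold lower). Il6 had a ratio of 0.629 and the related cytokine gene Lif one of 2.63 (1.98 to 3.57).

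The interferon-stimulated genes described above were also higher in these cells. Ifit1 had 3 UMIs at day 0 and 324 CPM at day 5, and 286 CPM in the narrower selection. Rsad2 had 1 UMI at day 0, and 186 CPM at day 5 in Pdgfra-positive cells against 116 CPM in the narrower selection. Isg15 went from 35.4 to 425 CPM, and Bst2, which tethers budding virus, had a ratio of 7.56 (6.01 to 9.64). Ifit1 and Rsad2 were thus over 100 CPM in the narrower selection too. The part of leukocyte RNA in these levels was not tested.

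Among the signals that act on progenitors, Inhba, the activin A subunit, had a ratio of 7.57 (6.46 to 8.94), and Bmp2, Bmp4 and Bmp5 were lower, with Bmp4 9.96-fold lower. The Wnt pathway genes Sfrp2, a secreted modulator, and Ccn4, a target, had ratios of 24.8 (11.4 to 67.6) and 16.6 (8.03 to 41.3). Of the 18 TGF-beta, BMP and Wnt genes measured, 7 were higher and 5 lower. Of 8 genes of the IGF system 2 were higher and 3 lower. Over all genes of these cells 14.5% were called higher and 22.3% lower. Igf1 itself had 313 and 285 CPM (ratio 0.913, 0.811 to 1.03), while the binding protein genes Igfbp5 and Igfbp6 were 3.83-fold and 5.00-fold lower and Igfbp3 and Igfbp7 had ratios of 3.54 and 2.35. H19, an imprinted noncoding RNA of growing tissue, had a ratio of 30.1 (18.2 to 53.8) and is likewise named after its values were seen.

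The 25 cell division genes summed to 235 CPM at day 0 and 1297 CPM at day 5. Of 12 members at or above the minimum level 11 were higher, with a median log2 ratio of 3.77. Of the 25 genes 8 had 0 UMIs at day 0, and members at or near 0 there could pass the minimum level only through day 5. The count of higher members and the median thus follow in part from that filter. Birc5 (survivin) went from 1 UMI to 949 UMIs, Top2a from 3 to 638 and Mki67 from 0 to 423, the last at least 12.9-fold higher. With a cell counted as proliferating when at least 3 of 25 such genes had a UMI at 1000 UMIs per cell, 0 of 176 Pdgfra-positive cells proliferated at day 0, which allows up to 1.70%, and 14.0% of 607 at day 5 (11.3 to 17.0%). In all cells the share was 0 of 490 at day 0 and 9.24% of 2024 at day 5, and in Ptprc-positive cells 7.22% at day 5. The share depends on depth. Without thinning it was 2.82% and 57.7% in Pdgfra-positive cells, and 64 of the 607 thinned cells held 2 or 3 of these genes, close to the limit.

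Immediate early genes, which answer to stress and growth factors within minutes, were lower as a group. Of 13 genes 12 were lower and 0 higher, among them Fos (ratio 0.387), Egr1 (0.282) and Atf3 (0.171), while Ier3 had a ratio of 1.58. Their summed level was 15323 CPM at day 0 and 6521 CPM at day 5. Tissue dissociation is known to raise these genes too, and its part was not tested.

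Genes of thyroid hormone action were sparse. Of the 8 that reached the minimum level 3 were lower and 0 higher, where 22.3% and 14.5% of all genes were called. Klf9, a direct target of thyroid hormone and also of glucocorticoid receptors, had 1423 CPM at day 0 and 212 CPM at day 5, a ratio of 0.149 (0.139 to 0.160), and was found in 59.7% and 19.4% of cells. Me1, the malic enzyme, had a ratio of 0.454, and 0.543 in the narrower selection. Dio2, which makes active hormone, had 42 and 150 UMIs and a ratio of 0.326, but one of 1.01 when cells were thinned to 1000 UMIs. Thra, the main receptor of these cells, had 92.7 and 47.4 CPM (ratio 0.512, 0.408 to 0.649). Thrb had 10 UMIs at day 0 and 27 at day 5.

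Metabolic genes were mixed. Of 13 mitochondrially encoded transcripts 8 were lower and 1, mt-Nd4l, was higher, at 2.78 (2.35 to 3.30). Of 13 glycolytic genes 3 were higher, Eno1 (5.47), Pgam1 (2.40) and Pkm (2.13), and 3 lower, Hk2 (0.314), Pfkp (0.395) and Aldoa (0.24). Over all genes of these cells 14.5% were called higher and 22.3% lower. Aldoa is also abundant in muscle fibres, whose RNA was present in every day 0 cell. The part of that RNA in the Aldoa ratio was not tested. Of the adipogenic genes, Lpl, lipoprotein lipase, was 5.04-fold lower and the early factor Cebpd 5.57-fold lower. Fabp5, a fatty acid carrier, had a ratio of 140 (38.6 to 1154) from 2 UMIs at day 0, with 291 CPM at day 5 in Pdgfra-positive cells and 94.0 CPM in the narrower selection. Fibre transcripts were lower here as in all cells, with Acta1 at 3960 CPM on day 0 and 60.7 CPM on day 5.

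Cdh5-positive cells were few, and the day 5 cells were not all endothelial by their other transcripts. At least 3 of 12 further endothelial markers were present in 23 of 24 cells at day 0 and in 41 of 64 at day 5. Of the day 5 cells 27 held Lyz2, 20 Ptprc, 25 Col1a1 and 13 Pdgfra, and of the day 0 cells 0 held any of these 4. Ratios are therefore given both for all Cdh5-positive cells and for a narrower endothelial selection, chosen after seeing the data, of cells with at least 3 of those markers and without Ptprc, Lyz2 or Pdgfra. It held 23 cells and 72130 UMIs at day 0 and 26 cells and 192321 UMIs at day 5.

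In Cdh5-positive cells 972 of 6128 genes were higher (15.9%) and 1812 lower (29.6%), but the whole interval was past 2-fold for only 206 and 341 of them. The narrower selection gave 924 and 1353 of 5939. With the median ratio set to 1, 1466 genes were higher and 1156 lower in all Cdh5-positive cells. Genes known from other cells were among the higher ones. Spp1, Lyz2, Lgals3, Ccl4 and Col1a1 each had 0 UMIs at day 0, and between 1822 and 3762 CPM at day 5. In the narrower selection Ccl4 had 3 UMIs. Col1a1 (998 CPM, at least 24.0-fold), Lgals3 (239 CPM, at least 5.75-fold) and Spp1 (114 CPM, at least 2.75-fold) were still called higher there. Col1a1 and Lgals3 were each found in only 5 of the 26 day 5 cells of that selection. Apoe had a ratio of 39.7 in all Cdh5-positive cells and 0.90 (0.415 to 2.11) in the narrower selection, and Fabp5 one of 8.48 against 1.04 (0.647 to 1.71). Cxcl5 had 1364 UMIs in all Cdh5-positive cells at day 5 and 5 in the narrower selection.

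Endothelial genes lower in both selections included Cldn5, the tight junction claudin, with ratios of 0.123 (0.100 to 0.151) and 0.307 (0.244 to 0.386), the flow-induced factor Klf2 (0.100 and 0.29), the sphingosine phosphate receptor S1pr1 (0.14 and 0.375), Pgf, placental growth factor (0.0966 and 0.248), the junctional molecule Jam2 (0.188 and 0.275) and the Notch ligand Dll4 (0.101 and 0.273). Klf2 and S1pr1 were picked after their values were seen. Flt1, Kdr and Egfl7 were lower in all Cdh5-positive cells, with ratios between 0.239 and 0.279, and had ratios of 0.643 (0.482 to 0.863), 0.677 (0.444 to 1.05) and 0.545 (0.403 to 0.741) in the narrower selection. Pecam1 had ratios of 0.556 and 1.16. Of 12 endothelial markers 7 were lower and 1 higher in all Cdh5-positive cells, and 1 and 1 in the narrower selection. The shares over all genes were 29.6% lower and 15.9% higher in the former, and 22.8% and 15.6% in the latter.

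Of 11 measured genes of capillary lipid uptake 7 were lower and 1, Fabp5, higher, and in the narrower selection 5 were lower and 0 higher. Over all genes 29.6% were called lower and 15.9% higher, and 22.8% and 15.6% in the narrower selection. Cd36, the fatty acid translocase, had ratios of 0.338 (0.272 to 0.424) and 0.518 (0.400 to 0.672). Timp4 had 11 UMIs at day 0 and 3 at day 5 in both selections, with ratios of 0.0252 (0.00451 to 0.0953) and 0.102 (0.0182 to 0.387). Fabp4, an intracellular fatty acid carrier, had 7389 and 3370 CPM in all Cdh5-positive cells, and 7473 and 6619 CPM in the narrower selection (ratio 0.886, 0.800 to 0.981). Gpihbp1, which carries lipoprotein lipase across capillaries, had ratios of 0.699 (0.399 to 1.32) and 1.13 (0.602 to 2.23).

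Further genes were higher in both selections. Fibroblast transcripts were present beside them in the narrower one. There 7 of 9 measured fibro-adipogenic markers were higher, and the list summed to 1178 CPM at day 0 and 4726 CPM at day 5. Of 6 fibrillar collagens 5 were higher (180 and 3151 CPM). At day 5 Col1a1 was found in 5 cells, and Col5a1 and Col5a2 in 1 cell each. The part of fibroblast transcripts in the ratios that follow was not tested. Icam1, an adhesion molecule for leukocytes, had ratios of 5.34 (2.26 to 16.6) and 9.53 (3.98 to 29.8). Selp, P-selectin, had 0 UMIs at day 0, and was at least 3.38-fold higher in all Cdh5-positive cells and at least 5.88-fold higher in the narrower selection. Plvap, the diaphragm protein of leaky capillaries, rested on 2 UMIs at day 0 and had ratios of 4.85 (1.31 to 40.5) and 11.4 (3.03 to 96.6). Col4a2, a basement membrane collagen, had ratios of 2.82 (1.60 to 5.51) and 5.09 (2.84 to 10.1), and Col4a1 had 1.27 (0.953 to 1.72) and 2.37 (1.76 to 3.25). Of 11 basement membrane genes 5 were higher in all Cdh5-positive cells and 8 in the narrower selection, where Pdgfra-positive cells had 0 of 12. Over all genes 15.9% were called higher in all Cdh5-positive cells, 15.6% in the narrower selection and 14.5% in Pdgfra-positive cells. Igfbp7 had ratios of 4.23 and 6.97, and Sparc 9.89 and 9.73. Rsad2 (17.7 and 18.3) and Ifit1 (32.0 and 28.5) were higher in both selections, which held nearly the same day 0 cells (24 and 23). In the narrower one Ifit1 rested on 2 UMIs at day 0, with an interval of 7.76 to 237.

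**Figure D4:**
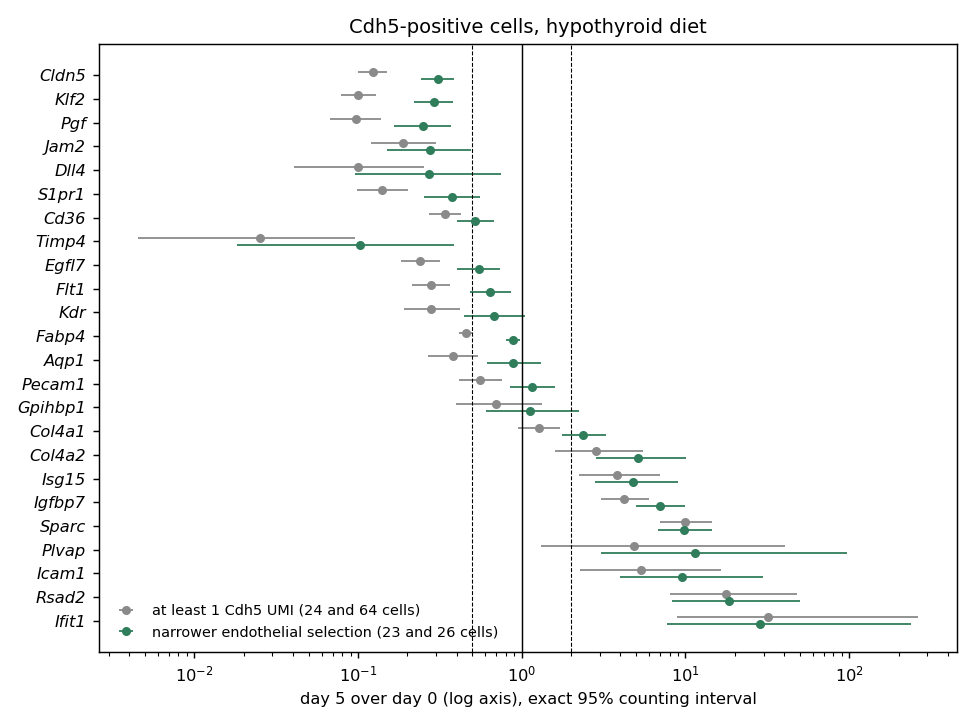
Day 5 over day 0 ratio of 24 genes on a log axis with exact 95% counting intervals, in all Cdh5-positive cells (grey, 24 and 64 cells) and in the narrower endothelial selection (green, 23 and 26 cells), with dashed lines at 0.5 and 2. Cldn5, Klf2 and Pgf lie below 0.5 in both, Icam1, Rsad2 and Ifit1 above 2 in both, and Pecam1 lies at 0.556 in the first and 1.16 in the second.

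The control diet libraries of the same days were read side by side, with 1152 and 2428 cells in all and 508 and 316 Pdgfra-positive cells. The 2 diets share no library, and the difference between them was not tested. Of the 2428 control cells of day 5, 528 are identical to the later columns of hypothyroid day 0. Which label those cells belong to was not given in the sources used here. In Pdgfra-positive cells Col1a1 had a ratio of 19.2 on the hypothyroid diet and 13.9 (13.4 to 14.4) on the control diet. Col3a1 had 10.3 and 9.03, Lox 10.9 and 7.92, and Inhba 7.57 and 9.51. Postn had 126 and 301 (225 to 413), Cthrc1 364 and 1308 (362 to 10804), Tnc 1678 and 375 (240 to 623) and Timp1 109 and 167 (122 to 235). Gsn had ratios of 0.0471 and 0.0574, and Dcn 0.143 and 0.160.

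Among the chemokines, Ccl2 had a ratio of 2.61 on the hypothyroid diet and 0.394 (0.387 to 0.402) on the control diet, where it went from 8654 to 3412 CPM. Ccl7 had ratios of 1.55 and 0.48, Cxcl1 0.989 and 0.424, Cxcl10 15.4 and 2.60, Ccl11 0.112 and 0.234, and the cytokine gene Il33 1.92 and 0.647. Mgp had a ratio of 12.5 on the hypothyroid diet, from 63.5 CPM at day 0, and 1.04 on the control diet, from 723 CPM, with day 5 levels of 796 and 749 CPM. The gap between the diets in Mgp thus lay at day 0. The interferon-stimulated genes Ifit1 (104 and 2.60) and Rsad2 (179 and 7.60) had larger ratios on the hypothyroid diet, on 3 and 1 UMIs at day 0. Klf9 had ratios of 0.149 and 0.379 (0.360 to 0.399).

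**Figure D5:**
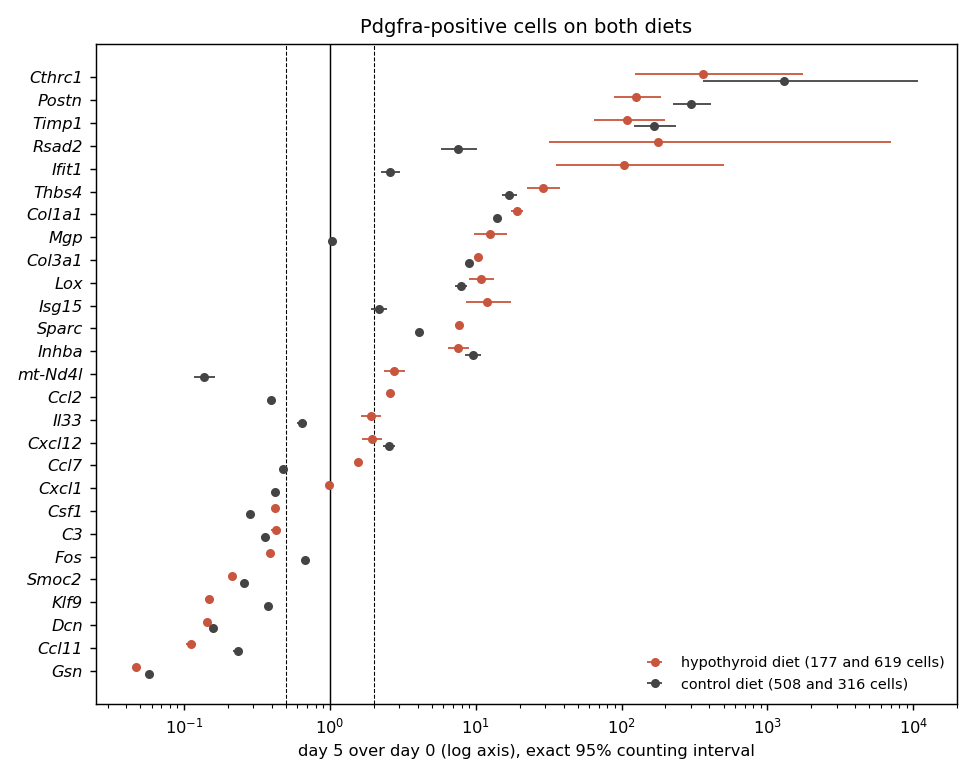
Day 5 over day 0 ratio of 27 genes in Pdgfra-positive cells on a log axis with exact 95% counting intervals, on the hypothyroid diet (red, 177 and 619 cells) and the control diet (dark grey, 508 and 316 cells), with dashed lines at 0.5 and 2. Ccl2 lies at 2.61 and 0.394 and mt-Nd4l at 2.78 and 0.138, while Gsn lies at 0.0471 and 0.0574.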

How the data were processed

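Cells of TA muscle were profiled with 10x Genomics 3' chemistry, 1 library for each diet and day. The authors aligned reads with Cell Ranger and processed counts in Partek Flow against mm39 (GRCm39), and deposited log2 values, log2(CPM + 1), for 12436 genes in each cell. The authors state limits on UMIs, genes and mitochondrial share per cell. Of the cells used, 72 of day 0 and 1079 of day 5 exceed the stated limit of 8000 UMIs, and the stated UMI and gene limits would leave 415 and 986, or 527 and 2153 with these 2 limits exchanged. No further filter was applied. Removal of doublets was not given in the sources used here, and no doublet caller was run. UMIs were recovered by taking the most frequent value above 0 of a cell as 1 UMI: 99.92% (day 0) and 99.94% (day 5) of values were then whole within 0.02 UMI. The values thus stand for counts, which were summed over cells and compared as CPM with exact conditional binomial intervals. Shares of cells were computed after thinning to 1000 UMIs, with Clopper-Pearson intervals, which left out 38 cells of day 0 and 131 of day 5. The calculations were tested on simulated data, and used Python 3.11.15, NumPy 2.4.6, SciPy 1.17.1 and pandas 2.3.3.

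Later barcode runs of the tables (528 and 2154 columns) were left out except as an alternative. The named genes were, for each comparison, the 10 highest and 10 lowest by the interval end nearest 1 with at least 100 UMIs in the higher library (50 in Cdh5-positive cells) and in at least 10 cells, and members of 30 lists. These lists and the comparison were chosen with earlier results of these data known. Of 374 list entries 360 were in the tables, and the others were not analysed here. The design named a 2-fold rule and no p-value, since each group is 1 library of 3 pooled mice. Promoter windows came from RefSeq (GRCm38.p6) and the printed stretches were placed on GRCm39 by exact match. Some genes are not reported here.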

Additional observations from a re-analysis of the deposited data

Results flagged for a closer look

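Values are ratios of day 5 over day 0, and the genes named here went past 2-fold one way on the hypothyroid diet and the other way on the control diet, with the whole counting interval past 2-fold in both. The difference between the diets was not tested, since each group is 1 library. The control cells of day 5 include the 528 that are identical to later columns of hypothyroid day 0. In Pdgfra-positive cells Ccl2 had a ratio of 2.61 (2.53 to 2.68) on the hypothyroid diet and 0.394 (0.387 to 0.402) on the control diet. The mitochondrial transcript mt-Nd4l had 2.78 (2.35 to 3.30) against 0.138 (0.116 to 0.164) in Pdgfra-positive cells and 3.05 (2.75 to 3.39) against 0.132 (0.119 to 0.145) in all cells. In all cells the endothelial gene Cldn5 had 0.136 (0.112 to 0.166) against 2.98 (2.52 to 3.55), and the pericyte gene Rgs5 had 0.357 (0.302 to 0.425) against 2.36 (2.14 to 2.62). The hemoglobin genes Hba-a1 and Hba-a2 had 0.000375 (7.72e-05 to 0.0011) and 0.00019 (4.8e-06 to 0.00106) against 2.72 (2.24 to 3.33) and 2.93 (2.40 to 3.62). On the hypothyroid diet at day 0 they had 777 and 512 UMIs, found in only 18 and 14 cells.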

How the results depend on the processing

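No paired analysis was possible because each group has 1 library, and for the same reason no library could be left out. Depth limits the Cdh5-positive cells most, where 3 UMIs stand for 41.1 CPM at day 0 against 3.13 CPM in Pdgfra-positive cells. Over all values and alternatives, 1220 moved by little (counts by at most 1.5 times, other values within their interval), 899 moved further and 18 reversed, and 13 gave no fold; the cause was not tested. The setting with all columns adds, at day 0, 528 cells identical to cells of the control diet at day 5. Setting the median ratio to 1 gave 735 lower genes in all cells, 808 in Pdgfra-positive cells, and 1466 higher and 1156 lower in Cdh5-positive cells. Without a minimum level the counts higher and lower were 1788 and 2657 in all cells and 1716 and 2790 in Pdgfra-positive cells, and 2855 lower in Cdh5-positive cells. At a minimum of 100 CPM they were 293 and 334, 322 and 369, and 310 and 450. With the whole interval past 2-fold they were 461 and 682 in Pdgfra-positive and 206 and 341 in Cdh5-positive cells. With all columns they were 130 and 172, 127 and 258, and 338 and 334, and Cdh5-positive cells thinned to 1000 UMIs gave 315 and 2904. Without thinning, shares of cells at day 0 were 6.25% for Ptprc, 33.5% for Pdgfra and 4.55% for Cdh5, with 5.87% proliferating in all and 2.82% in Pdgfra-positive cells; at day 5 they were 40.1% for Ptprc, 28.7% for Pdgfra, 2.97% for Cdh5 and 41.7% for Lyz2, with 40.7%, 57.7% and 46.9% proliferating in all, Pdgfra-positive and Cdh5-positive cells. At 2000 UMIs day 0 had 5.46% for Ptprc, 28.0% for Pdgfra and 1.74% proliferating, and day 5 had 23.6% for Ptprc, 11.8% for Pdgfra, 2.07% for Cdh5, 32.4% for Lyz2, 16.5% proliferating in all and 22.6% in Pdgfra-positive cells. With all columns day 0 had 26.3% for Ptprc, 8.59% for Pdgfra, 5.16% for Lyz2, 5.36% proliferating in all and 4.98% in Pdgfra-positive cells, and day 5 had 27.4% for Ptprc, 2.96% for Cdh5 and 18.3% for Lyz2. With all columns these ratios reversed: in all cells Gzma 0.673, H2-Aa 0.955, Mki67 0.988 and Top2a 0.952; in Pdgfra-positive cells Acta2 0.989, Loxl3 0.987, Lrrc15 0.921, P4ha3 0.998, Serpinh1 0.910, Sfrp1 0.701 and Spp1 0.539; in Cdh5-positive cells Col4a2 0.823 and Vwf 0.561. In thinned cells Dio2 (1.01, Pdgfra-positive) and Vwf (0.492, Cdh5-positive) reversed. Among Cdh5-positive cells Apoe (0.809) and Fabp5 (0.929) reversed without cells that held Ptprc, Pax7 or Pdgfra, and Apoe (0.900) in the narrower selection, which was added after seeing the data.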
